A study of Mus musculus with 6 samples.

Results

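Germ cell chaperones are the heat shock and endoplasmic reticulum (ER) folding proteins that male germ cells make in place of, or beside, the forms used by other tissues. The set described here has 10 genes, taken by symbol from the 34144 rows of the deposited mouse testis gene tables: Hspa2, Hspa1l, Hspa4l, Hsph1, Dnajb3, Dnajb8, Dnajb13, Calr3, Clgn and Pdilt. Of these, Hsph1 is also made in other tissues, and which testis cells gave its RNA was not tested. All 10 were present in the tables and all 10 passed the filter on low counts. RNA came from decapsulated testes of 3-month-old mice labelled C57Bl/6J, 3 of them Nsun7-/- and 3 wild type (WT), with 1 mouse to a library. Nsun7 belongs to a family of putative RNA methyltransferases, and by the series title its protein binds RNA and makes mRNAs of elongated spermatids less stable. The allele, and whether the deletion acts in germ cells alone, are not stated in the labels. The comparison asked whether the RNA level of each chaperone differed between Nsun7-/- and WT testes.

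Heat shock proteins of the HSP70 family hold and release unfolded proteins in a cycle driven by ATP. J proteins (the DNAJ family) bring clients to HSP70 and start ATP hydrolysis, and the larger HSP110 proteins exchange the nucleotide so that the client is let go. In the ER, lectin chaperones of the calnexin and calreticulin type and protein disulfide isomerases fold glycoproteins. In developing sperm these ER forms act on ADAM surface proteins that sperm need to pass through the female tract and bind the egg coat.

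No chaperone gene was found to differ between the genotypes. With edgeR's quasi-likelihood test, 0 of 10 passed a Benjamini-Hochberg adjusted p of 0.05 over the 21002 genes tested, where 0.567% of all tested genes passed. At an unadjusted p under 0.05 the count was also 0 of 10, beside 8.39% of all tested genes, and DESeq2 likewise called 0 of 10, beside 1.01% of all tested genes. Adjusted p in edgeR ran from 0.764 to 0.983. Of the log2 fold changes (Nsun7-/- over WT), 7 were above 0 and 3 below. Their median was 0.04, against 0.01 over all tested genes, and their median size without sign was 0.05, against 0.16 over all tested genes. The largest was 0.14 in size, a bound that 44.5% of all tested genes kept within. All tested genes include those of lower counts than the chaperones, and no background of like counts was used.

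The intervals set how large a change could have been missed. Across the 10 genes the 95% intervals of the log2 fold change, each for its own gene alone, reached down to -0.44 and up to 0.46, which is 0.737-fold and 1.37-fold. For 0 of 10 genes were the CPM values of the genotypes free of overlap, beside 14.3% of all tested genes. CPM here is the gene's count scaled to a fixed total per library (library sizes scaled with TMM, edgeR's normalization), and it compares libraries for a gene or a fixed list, not the levels of different genes.

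**Figure D1:**
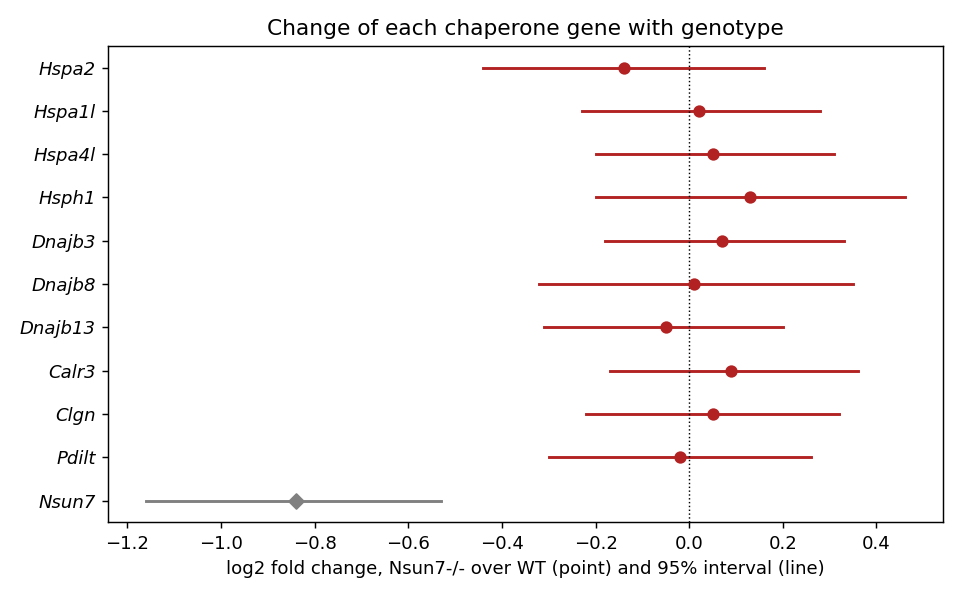
Log2 fold change (x axis, Nsun7-/- over WT, point) with its 95% interval (line) for each chaperone gene, and in grey for Nsun7 (rows). All 10 chaperone intervals cross 0 and lie between -0.44 and 0.46, while that of Nsun7 runs from -1.16 to -0.53.

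Libraries held between 23480448 and 28558865 counts, and the chaperone genes together took between 0.297% and 0.328% of them. Nsun7 itself was at 18, 17.8 and 25.2 CPM in Nsun7-/- mice 1, 2 and 3, against 36.6, 35.7 and 37.2 CPM in WT mice (log2 fold change -0.84, SE 0.15, edgeR adjusted p = 0.016), so its RNA was lower but present. This call was lost without any 1 of the WT mice or without Nsun7-/- mouse 2 (edgeR adjusted p = 0.0556 to 0.093), and on log2 TPM (-0.46 to -0.50). Germ cell markers fitted the testis label, with summed levels of 4758 to 6570 CPM in Nsun7-/- and 6402 to 7517 CPM in WT for 7 pachytene spermatocyte markers. For 10 elongating spermatid markers the sums were 7421 to 10213 CPM in Nsun7-/- and 8205 to 10766 CPM in WT. Of 8 Leydig cell markers edgeR called 2 higher in the knockout (Hsd3b1 and Hsd17b3, enzymes of testosterone synthesis, named after their values were seen) and 0 lower, beside 0.233% and 0.333% of all tested genes, and all 8 had a log2 fold change above 0, with sums of 2222 to 4958 CPM in Nsun7-/- and 1762 to 2900 CPM in WT. No marker of the other 7 cell types was called. The log2 fold change was above 0 for 7 of 7 macrophage markers, for 0 of 7 pachytene markers and for 0 of 6 markers of peritubular myoid cells, whose sums did not overlap (497 to 619 CPM in Nsun7-/- and 643 to 683 CPM in WT). How often sums over other sets of genes do not overlap was not counted. The part of these cell types in the chaperone values was not tested. In whole testis a change in the number of cells of a type and a change in RNA per cell cannot be told apart.

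To compare genes with each other, levels must account for transcript length, and TPM (transcript abundance per length, scaled to the same total in each library) was used for this. Hspa2 was the most abundant chaperone, at 1021, 947 and 1059 TPM in Nsun7-/- mice and 812, 914 and 963 TPM in WT mice. Hsph1 was the least abundant, at 11.4, 16.3 and 25.7 TPM in Nsun7-/- mice and 10.1, 14.2 and 17.4 TPM in WT mice. Their means over the 6 libraries stood 60.1-fold apart. In descending order of mean TPM the genes were Hspa2, Dnajb3, Hspa4l, Dnajb8, Dnajb13, Hspa1l, Clgn, Pdilt, Calr3 and Hsph1. Where a gene has forms of different length, as Hspa4l does, its TPM depends on how counts are divided between them. Each gene stood above the next in all 6 libraries, except that Dnajb13 was above Hspa1l in only 4 of 6, with a ratio between 0.948 and 1.34. Dnajb8 exceeded Dnajb13 by a factor as small as 1.03 in a library, so Dnajb8, Dnajb13 and Hspa1l lie close together in this order. Hspa2 was the sole gene whose TPM range over the libraries did not overlap that of its neighbour in the order.

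TPM was not used for the main test between genotypes, and served there only as an alternative setting. The reason was Rmrp, the RNA of RNase MRP. It alone took 11.4% to 17.5% of the TPM total in Nsun7-/- libraries and 15.7% to 33.3% in WT libraries. The median tested gene was 0.25 higher in the knockout on log2(TPM + 1). The chaperone genes were 0.17 to 0.40 higher on that scale, with a median of 0.31, and 0 of 10 passed (limma, lowest adjusted p = 0.406). In TPM every Nsun7-/- library exceeded every WT library for Hspa4l, Dnajb3 and Dnajb13 (in Dnajb13 with nearly equal values at the border), which is 3 of 10 genes, beside 19.1% of all genes tested on TPM.

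**Figure D2:**
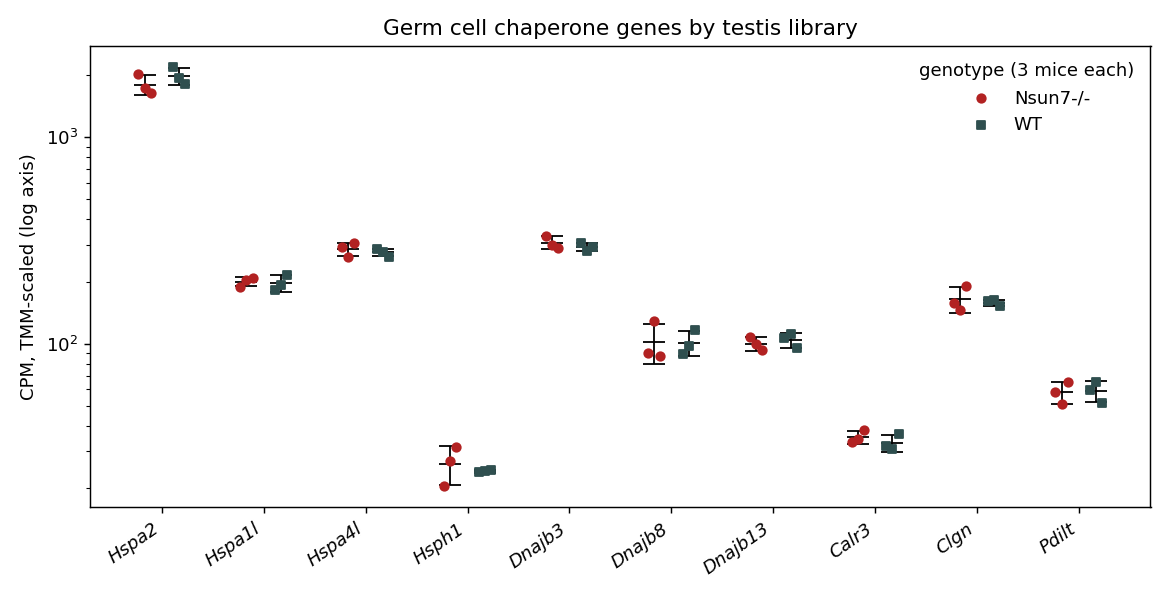
CPM (y axis, log scale) of each chaperone gene (x axis) in 3 Nsun7-/- libraries (circles, left) and 3 WT libraries (squares, right), with mean and SD as bars. The genotypes overlap for every gene, with Hspa2 between 1647 and 2197 CPM and Hsph1 between 20.3 and 31.5 CPM.

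The start regions of the most and least abundant genes are shown here because Hsph1 is, in other tissues, a heat-induced gene and Hspa2 is not. Dnajb3 is shown as the second most abundant member. Each line holds 250 bases before and 50 after the annotated start, 5′ to 3′ on the gene's strand, from RefSeq on GRCm38.p6, an older build than the mm39 of the counts. Capitals mark matches to the heat shock element letters (GAANNTTC or TTCNNGAA) and the CCAAT box (CCAAT or ATTGG).
Hspa2, chr12:76404120-76404419, plus strand: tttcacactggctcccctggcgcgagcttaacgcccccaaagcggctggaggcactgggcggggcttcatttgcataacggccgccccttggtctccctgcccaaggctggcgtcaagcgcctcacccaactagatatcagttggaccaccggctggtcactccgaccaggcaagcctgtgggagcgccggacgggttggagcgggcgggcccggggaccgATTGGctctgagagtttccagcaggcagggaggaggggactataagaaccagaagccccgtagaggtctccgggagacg
Dnajb3, chr1:88205699-88205998, minus strand: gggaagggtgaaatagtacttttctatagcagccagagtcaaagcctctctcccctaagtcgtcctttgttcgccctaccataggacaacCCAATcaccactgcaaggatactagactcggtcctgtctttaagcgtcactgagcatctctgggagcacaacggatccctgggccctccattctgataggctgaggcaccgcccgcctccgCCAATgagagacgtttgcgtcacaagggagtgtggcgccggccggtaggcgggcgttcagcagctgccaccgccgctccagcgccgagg
Hsph1, chr5:149636287-149636586, minus strand: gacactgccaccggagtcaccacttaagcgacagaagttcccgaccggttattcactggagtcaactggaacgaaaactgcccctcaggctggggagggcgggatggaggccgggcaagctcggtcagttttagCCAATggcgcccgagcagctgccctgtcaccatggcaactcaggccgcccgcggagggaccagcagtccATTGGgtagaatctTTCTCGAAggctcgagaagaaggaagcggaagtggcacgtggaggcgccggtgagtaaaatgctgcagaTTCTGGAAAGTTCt

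Among the 9 chaperone genes with a RefSeq start region (Clgn was not among them), Hsph1 alone held heat shock element letters. It had TTCNNGAA 33 bases before the start, and TTCNNGAA 36 bases and GAANNTTC 41 bases after it, the last pair overlapping. RefSeq gives Hsph1 a second start, from which the same matches lie 54 bases before, and 15 and 20 bases after. Of 32851 start regions of the same length, 8.52% held TTCNNGAA and 7.86% held GAANNTTC on either strand. The stress-induced relatives Hspa1a and Hspa1b each had GAANNTTC 104 bases before the start. A CCAAT box was present in 7 of the 9, at 29 bases before the start in Hspa2, 39 and 160 in Dnajb3, and 47 and 116 in Hsph1, where 37.4% of all regions had 1 or more. The match counted for Dnajb13 lay 42 bases after the start. The short site of the cAMP response element, TGACG on either strand, was found in 5 of 9 (Hspa2, Hspa1l, Hspa4l, Dnajb3 and Calr3), against 20.8% of all regions. The full element TGACGTCA (1.79% of all regions) and the TATA box letters TATAAA (13.6%) were found in 0 of 9. These are letter matches and say nothing of binding.

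The germ cell forms of HSP70 are Hspa2 and Hspa1l. Hspa2 encodes the HSP70 that spermatocytes need to complete meiosis, where it acts in disassembly of the synaptonemal complex and in forming the CDK1 and cyclin B complex. It was measured at 2032, 1730 and 1647 CPM in Nsun7-/- mice 1, 2 and 3, and at 2197, 1947 and 1812 CPM in WT mice 1, 2 and 3. The genotypes overlapped, with WT mouse 1 highest and Nsun7-/- mouse 3 lowest. The means were 1803 ± 203 CPM in Nsun7-/- and 1986 ± 196 CPM in WT (SD, n = 3 each), and the log2 fold change was -0.14 (SE 0.14, 95% interval -0.44 to 0.16, edgeR adjusted p = 0.764).

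Hspa1l, the HSP70 form of spermatids, lies in the major histocompatibility region beside the stress-induced genes Hspa1a and Hspa1b. It had 189, 203 and 207 CPM in Nsun7-/- mice and 181, 193 and 216 CPM in WT mice. The WT libraries held both the lowest and the highest value. The log2 fold change was 0.02 (SE 0.12, 95% interval -0.23 to 0.28, edgeR adjusted p = 0.963). On the TPM scale Hspa1l was between 6.56-fold and 11-fold more abundant than Hspa1a in the 6 libraries. That ratio is to Hspa1a alone, at 10.4 to 12.4 TPM. The nearly identical Hspa1b, at 11.2 to 14.5 TPM, is not counted in it. Hspa2 was between 1.55-fold and 1.97-fold more abundant than Hspa8, the HSP70 that every cell makes. How far reads can be assigned to Hspa1l was checked by its sequence words of 31 bases. Of these, 14.6% also occurred in Hspa1a and 71.7% in Gm10501, an RNA annotated on the other strand over 71.9% of its exonic bases. Counting by strand is not stated for these data, so Hspa1l reads and those of Gm10501 cannot be told apart in the shared stretch. The deposited counts gave Gm10501 0.97 to 2.62 CPM in Nsun7-/- and 0.969 to 5.12 CPM in WT. For Hspa2 only 0.115% of such words were shared with any other gene.

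The HSP110 proteins exchange nucleotide on HSP70. Hspa4l, whose loss lowers male fertility in mice, was at 293, 263 and 306 CPM in Nsun7-/- mice and 288, 278 and 264 CPM in WT mice. The Nsun7-/- libraries held both extremes, and the log2 fold change was 0.05 (SE 0.12, 95% interval -0.20 to 0.31, edgeR adjusted p = 0.903). In TPM Hspa4l stood 5.93-fold to 7.11-fold above Hspa4, the form of most tissues. A short form of 669 bases held 13.4% to 23.2% of Hspa4l counts. The ratio therefore depends on how counts are divided between forms of different length. Hsph1 had 20.3, 26.9 and 31.5 CPM in Nsun7-/- mice and 23.7, 24 and 24.4 CPM in WT mice. Its WT libraries were nearly equal and lay inside the spread of the Nsun7-/- libraries, with a coefficient of variation of 21.5% in Nsun7-/- and 1.38% in WT. The log2 fold change was 0.13 (SE 0.15, 95% interval -0.20 to 0.46, edgeR adjusted p = 0.801). Without Nsun7-/- mouse 3 the log2 fold change of Hsph1 was -0.03, and without Nsun7-/- mouse 1 it was 0.27 (edgeR adjusted p = 0.375).

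The J proteins of the set are Dnajb3, Dnajb8 and a structural protein of the tail, Dnajb13. Dnajb3, a J protein of spermatids, was at 334, 301 and 292 CPM in Nsun7-/- mice and 307, 281 and 293 CPM in WT mice. Nsun7-/- mouse 1 was highest and WT mouse 2 lowest, and the log2 fold change was 0.07 (SE 0.12, 95% interval -0.18 to 0.33, edgeR adjusted p = 0.859). Dnajb3 lies inside the Ugt1a locus, but shared no exonic base with any gene there in GENCODE M21, and no word of 31 bases with any other gene.

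Dnajb8, which keeps aggregation-prone proteins soluble in cultured cells, was at 90.4, 128 and 86.8 CPM in Nsun7-/- mice and 88.7, 97.1 and 116 CPM in WT mice. Nsun7-/- mouse 2 and WT mouse 3 were the high libraries, and the means were 102 ± 22.6 CPM in Nsun7-/- and 101 ± 13.9 CPM in WT (SD, n = 3 each; log2 fold change 0.01, SE 0.16, 95% interval -0.32 to 0.35, edgeR adjusted p = 0.983). The same 2 libraries also had the highest sums of the 10 elongating spermatid markers, 10213 CPM in Nsun7-/- mouse 2 and 10766 CPM in WT mouse 3, while the other 4 libraries lay between 7421 and 8780 CPM. The part of these markers in the Dnajb8 values was not tested. An antisense RNA, 1700031F10Rik, overlaps 37.2% of the exonic bases of Dnajb8 and had 8.93 to 13.7 CPM in Nsun7-/- and 3.4 to 11.8 CPM in WT.

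Dnajb13 is a protein of the radial spokes, the T-shaped arms of the axoneme that reach toward its central pair. It was at 108, 99.4 and 93.4 CPM in Nsun7-/- mice and 106, 111 and 94.9 CPM in WT mice. The ranges nearly coincided, with a log2 fold change of -0.05 (SE 0.12, 95% interval -0.31 to 0.20, edgeR adjusted p = 0.902). Ucp2 on the other strand shares 11.2% of the exonic bases of Dnajb13, and had 100 to 160 CPM in Nsun7-/- and 148 to 154 CPM in WT. Counting by strand is not stated, so reads of Dnajb13 and Ucp2 cannot be told apart in the shared stretch.

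The ER chaperones were the least abundant group apart from Hsph1. Clgn encodes calmegin, a calnexin-like membrane chaperone of spermatocytes and spermatids that is needed for pairing of ADAM1A with ADAM2 and for ADAM3 on the sperm surface. It was at 157, 145 and 190 CPM in Nsun7-/- mice and 160, 162 and 152 CPM in WT mice. Nsun7-/- mouse 3 stood above all other libraries and Nsun7-/- mouse 2 below all, and the log2 fold change was 0.05 (SE 0.13, 95% interval -0.22 to 0.32, edgeR adjusted p = 0.909). In TPM Clgn was 1.26-fold to 1.62-fold as abundant as Canx (calnexin) in the 6 libraries.

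Calr3, the calreticulin-like protein that is also needed for ADAM3, was at 33.3, 34.3 and 38 CPM in Nsun7-/- mice and 31.9, 30.7 and 36.4 CPM in WT mice. The log2 fold change was 0.09 (SE 0.12, 95% interval -0.17 to 0.36, edgeR adjusted p = 0.821), and WT mouse 3 lay within the Nsun7-/- range. Calr, the general form, was 15.5-fold to 19.4-fold more abundant than Calr3 in TPM. Pdilt, a disulfide isomerase-like partner of calmegin that lacks the usual catalytic cysteine pair, was at 58.2, 51.1 and 64.9 CPM in Nsun7-/- mice and 59.5, 65.4 and 51.6 CPM in WT mice. Its genotype means differed by less than either SD, at 58 ± 6.88 CPM in Nsun7-/- and 58.9 ± 6.91 CPM in WT (SD, n = 3 each; log2 fold change -0.02, SE 0.13, 95% interval -0.30 to 0.26, edgeR adjusted p = 0.972). P4hb, the general disulfide isomerase, was 1.89-fold to 2.86-fold more abundant than Pdilt in TPM. Of the words of 31 bases of Pdilt 9.97% occurred in other genes, Gm37518 and Acsm5 on the other strand, while Calr3, Clgn and Hsph1 shared none.

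For all 10 genes the genotype means differed by less than the larger of the SDs between mice. The share of all tested genes for which this holds was not counted. The variation between mice did not run the same way in all 10 chaperone genes. Nsun7-/- mouse 3 had the highest CPM of the 6 libraries for Hspa4l, Hsph1, Calr3 and Clgn, and the lowest for Hspa2, Dnajb8 and Dnajb13. Relative to the mean of the libraries on log2 CPM it stood at 0.34 for Hsph1 and 0.25 for Clgn, and at -0.20 for Hspa2 and -0.21 for Dnajb8. The same mouse had the lowest sum of the pachytene spermatocyte markers, 4758 CPM, against 6071 to 6570 CPM in Nsun7-/- mice 1 and 2 and 6402 to 7517 CPM in WT mice. It was also the lowest of the 6 libraries in the sums of spermatogonial (259 CPM), elongating spermatid (7421 CPM), Sertoli cell (2672 CPM) and peritubular myoid cell (497 CPM) markers, but not of round spermatid, Leydig cell or macrophage markers. The part of these differences in the chaperone values was not tested. Without both Nsun7-/- mouse 3 and WT mouse 1, 0 of 10 genes passed, and Hspa2 stood at a log2 fold change of 0.00.

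**Figure D3:**
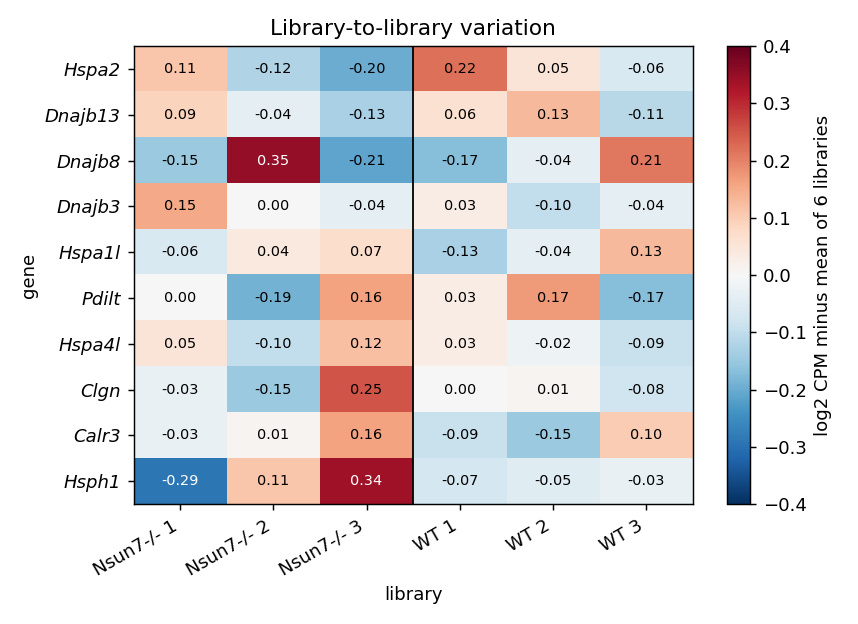
Log2 CPM minus the mean of the 6 libraries for each chaperone gene (rows) in each library (columns, Nsun7-/- left of the line, WT right). Nsun7-/- mouse 3 ranges from -0.21 for Dnajb8 to 0.34 for Hsph1, and no row separates the genotypes.

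By root mean square difference of centred log2 CPM over the 6 libraries, the genes nearest to Hspa2 among 10628 others with a mean of at least 10 CPM were Nck2 (0.018), Ccdc115 (0.024) and Mrpl43 (0.025), where the median gene was at 0.185. Nck2 had 52.3, 44.9 and 42 CPM in Nsun7-/- mice and 54.9, 49.7 and 46.6 CPM in WT mice, the same order of libraries as Hspa2. Nck2 was picked for its nearness to Hspa2 in these same values, so the shared order is no separate result.

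The transcripts of each gene were examined to see whether a form changed while the gene's total did not. The per-sample tables list 34 transcripts of the 10 genes, of which 24 passed the filter. With edgeR's quasi-likelihood test 0 of 24 passed over 58773 transcripts, where 0.0272% of all passed. At an unadjusted p under 0.05 the count was 0 of 24 as well, beside 4.76% of all transcripts, and DESeq2 called 0, beside 0.64% of all. Hspa1l and Dnajb3 have 1 listed transcript each, and Dnajb8, Calr3 and Pdilt had 98.4% or more of their counts on 1 transcript in every library. In the other 5 genes the counts were split.

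Hspa2 counts were divided between transcripts of 2524 and 2526 bases. That of 2524 bases took 66.7%, 63.6% and 68.5% in Nsun7-/- mice and 68.8%, 67.7% and 68.5% in WT mice. The shares overlapped and were nearly constant. Clgn was likewise split, with 57.1 ± 2.52% in Nsun7-/- and 55.3 ± 5.18% in WT (SD, n = 3 each) on its transcript of 3902 bases and the rest on that of 2293 bases.

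Hspa4l had its largest share, 58.4 ± 3.55% in Nsun7-/- and 53.6 ± 6.66% in WT (SD, n = 3 each), on a transcript of 1949 bases. The transcript of 9479 bases took 20 ± 1.81% in Nsun7-/- and 20.1 ± 2.48% in WT, and that of 669 bases 16.4 ± 2.77% in Nsun7-/- and 19.4 ± 3.48% in WT. All 3 shares overlapped between the genotypes. Hsph1, the least abundant gene, was spread over 10 transcripts with counts, and the share of the 3054-base form ran from 17.5% to 23.4% in Nsun7-/- libraries and from 17.3% to 45.2% in WT libraries.

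Dnajb13 held the member transcript of smallest p. Its 905-base form, annotated as a target of nonsense-mediated decay (destruction of mRNAs with an early stop), had 325, 240 and 279 estimated counts in Nsun7-/- mice and 573, 392 and 305 in WT mice. As a share of Dnajb13 counts this was 12.1%, 9.06% and 9.66% in Nsun7-/- and 24.4%, 13.6% and 12.4% in WT, so the genotypes did not overlap, with WT mouse 1 standing apart at the top. How often such shares do not overlap over all transcripts was not counted. The log2 fold change of the form was -0.77 (SE 0.33, 95% interval -1.56 to 0.02), with an edgeR unadjusted p of 0.0537 and an adjusted p of 0.932, and it did not pass. Without WT mouse 1 it was -0.38, and without that mouse and Nsun7-/- mouse 3 it was -0.28. Most Dnajb13 counts, 69.6 ± 1.95% in Nsun7-/- and 65.7 ± 5.95% in WT (SD, n = 3 each), were on a transcript of 1159 bases that is annotated as a processed transcript, a class without an open reading frame. The 2592-base protein-coding form took 19.7 ± 2.64% in Nsun7-/- and 17.5 ± 1.8% in WT. The deposited estimates divide reads between overlapping forms of a gene, and the uncertainty of that division is not in the values used here.

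**Figure D4:**
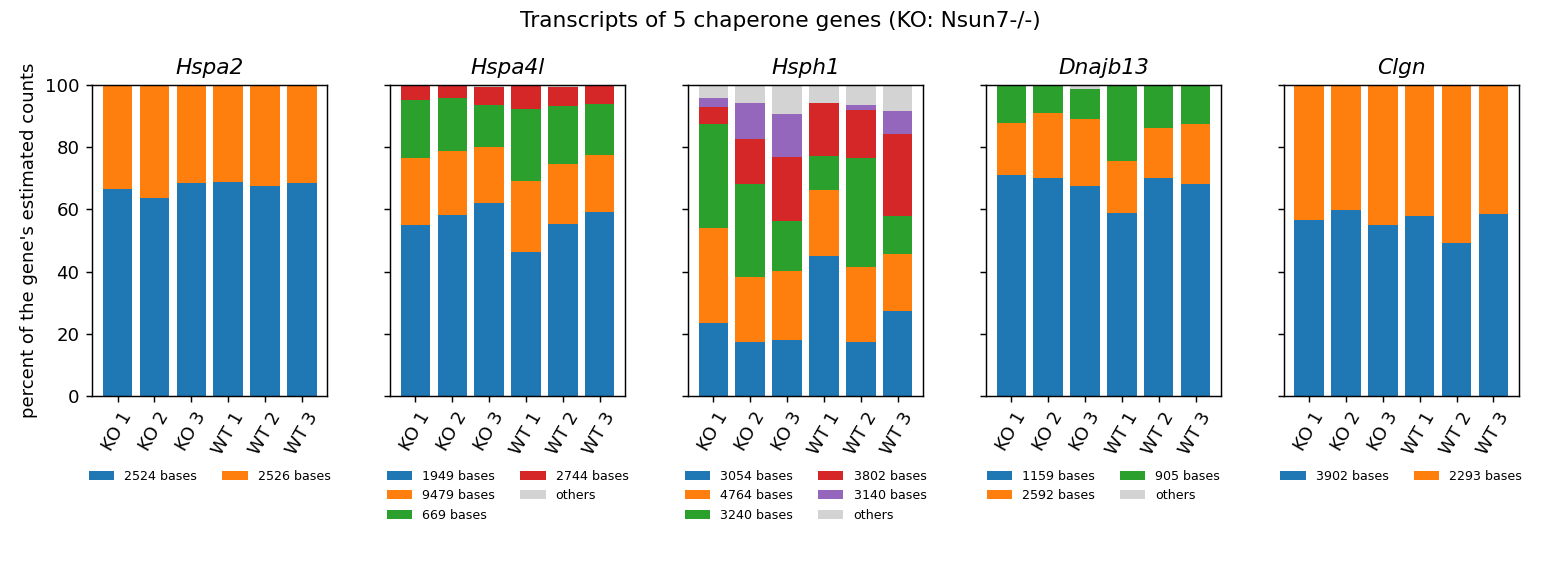
Share of each gene's estimated counts (y axis, percent) by transcript (colours, named by length in bases; grey for forms under 5% in both genotypes) in each library (x axis; KO, Nsun7-/-). The 905-base form of Dnajb13 takes 9.06% to 12.1% in Nsun7-/- and 12.4% to 24.4% in WT, and the Hspa2 split is nearly constant.

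The wider chaperone system and the proteins that these chaperones serve were read in 9 lists of 108 genes, of which 105 were tested. With edgeR's quasi-likelihood test 0 of the 105 rose and 0 fell, beside 0.233% and 0.333% of all tested genes, and DESeq2 called 0. Their median log2 fold change was 0.00, against 0.01 over all tested genes. At an unadjusted p under 0.05 there were 3, Ero1a, Tpst2 and Rsph6a, beside 8.39% of all tested genes.

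Among relatives in the cytosol, 0 of 11 HSP70 and HSP110 paralogs were called (median log2 fold change 0.07). The smallest p was that of Hspa1b, stress-induced and nearly identical to Hspa1a, at 26.6 ± 2.95 CPM in Nsun7-/- and 30.8 ± 4.37 CPM in WT (SD, n = 3 each; log2 fold change -0.21, edgeR adjusted p = 0.671). On log2(TPM + 1), where the median tested gene stood at 0.25, its value was 0.09. None of 14 DNAJA and DNAJB co-chaperones (median 0.09), 12 regulators of HSP70 (0.01) or 19 genes of HSP90, the chaperonin and small heat shock proteins (0.00) was called by edgeR. The smallest p in these lists belonged to Dnajb9, an ER J protein (0.26, adjusted p = 0.642), Bag5, a nucleotide exchange factor of HSP70 (0.21, adjusted p = 0.655), and Hspb9, a testis small heat shock protein (-0.31 and 0.01 on log2 TPM, adjusted p = 0.603), as edgeR log2 fold changes. Of 6 heat shock transcription factors 4 were tested and 0 called, with Hsfy2 of smallest p (log2 fold change 0.38, edgeR adjusted p = 0.604).

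In the ER, 0 of 12 general chaperones and oxidases were called (median 0.03). Ero1a, which reoxidizes disulfide isomerases, was at 26, 24.3 and 26.8 CPM in Nsun7-/- mice and 18.2, 21.3 and 20.6 CPM in WT mice. Its genotypes did not overlap, which held for 14.3% of all tested genes, and it did not pass (log2 fold change 0.36, SE 0.13, edgeR adjusted p = 0.431). Among 13 clients and partners of Clgn, Calr3 and Pdilt 0 were called (median 0.03). Adam3, the client that all 3 chaperones serve, was at 250, 270 and 339 CPM in Nsun7-/- mice and 267, 263 and 286 CPM in WT mice (log2 fold change 0.08, edgeR adjusted p = 0.872). Nsun7-/- mouse 3 was highest for Adam3, as for Clgn and Calr3 but not Pdilt, and also for Hspa4l, Hsph1, Hspa4 and Canx. Adam3 was named for that role after its value was seen. Tpst2, a tyrosine sulfotransferase without which male mice are infertile, had the smallest p of the list, with 17.7, 16.3 and 10.7 CPM in Nsun7-/- mice and 21.8, 19.9 and 19.5 CPM in WT mice (log2 fold change -0.46, edgeR adjusted p = 0.493).

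For the partners of Hspa2 in meiosis, 11 genes of the synaptonemal complex and the CDK1 kinase, 0 were called (median -0.01). Syce3, a central element protein, had the smallest p, with a log2 fold change of -0.24 (edgeR adjusted p = 0.67). On log2(TPM + 1) Syce3 was at 0.11, where the median tested gene stood at 0.25. Of 9 tested radial spoke partners of Dnajb13 0 were called (median -0.10). Rsph6a, a spoke head protein of sperm, was at 270, 262 and 205 CPM in Nsun7-/- mice and 358, 317 and 327 CPM in WT mice. The genotypes did not overlap for Rsph6a, which held for 14.3% of all tested genes. The gene did not pass (log2 fold change -0.44, SE 0.13, edgeR adjusted p = 0.287), while Dnajb13 of the same spokes stood at -0.05. Of the list genes named above, Dnajb9, Bag5, Ero1a and Tpst2 likewise had no overlap in CPM.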

How the data were processed

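Total RNA of 6 mouse testes was depleted of ribosomal and globin RNA and made into libraries, per the labels' protocols. Per the submitters' processing notes, reads were quantified with kallisto 0.50.1 on mm39. Annotation release and strand setting: not given in the sources used here. Deposited by the authors were estimated counts per gene (whole numbers), TPM per gene, and estimated counts and TPM for 126126 transcripts in each library. For the 10 genes the deposited gene counts lay within 0.477 counts of the summed transcript estimates. Columns of other samples numbered 0.

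Counts (transcript estimates rounded) went into edgeR 4.0.16 in R 4.3.3: TMM scaling, filterByExpr (minimum count 10, minimum total 15), robust quasi-likelihood test with genotype as sole term, Benjamini-Hochberg over all 21002 genes or 58773 transcripts. The SE of each log2 fold change comes from the test's F value, and 95% intervals use the test's degrees of freedom. The p-values set each genotype difference against the spread between these mice, estimated with information from all tested genes. DESeq2 1.42.0 and limma 3.58.1 (voom, and log2(TPM + 1) or log2(TPM + 0.1) at a mean TPM of at least 0.5) were alternatives. The tests were checked on simulated counts. Lists are described by counts and medians, without set tests.

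Transcripts were matched to genes through GENCODE M21 (93.6% matched), which annotates an older build, so that it served for gene names, overlaps and shared words of 31 bases. Named genes are the 10 members, Nsun7, the gene of smallest p in each chaperone network and partner list, any called gene of those lists, and the 3 genes nearest to Hspa2. Adam3, Rmrp, overlapping RNAs and relatives given as TPM ratios are outside that rule. The members, lists and tests were chosen with earlier results of these data known. The main fit did not pair the genotypes by mouse number, and the labels do not say whether the numbers mark pairs.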

Additional observations from a re-analysis of the deposited data

How the results depend on the processing

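In 17 alternative settings for each of the 10 chaperone genes, 0 of 170 values passed (lowest adjusted p = 0.375), and 22 changed sign, all from values between -0.14 and 0.13. On log2 TPM, with pseudocount 1 with or without a filter and with 0.1, Hspa2 was at 0.17, Dnajb13 at 0.22 and Pdilt at 0.29, while Hspa1b (0.09, 0.10 and 0.09), Hspb9 (0.01) and Syce3 (0.11) also turned positive; on that scale the median gene moved by 0.25. Without WT mouse 1 and Nsun7-/- mouse 3 together Hspa1l was at -0.06, Hsph1 at -0.03, Dnajb13 at 0.01 and Clgn at -0.06. Leaving out 1 mouse gave ranges of -0.24 to -0.07 for Hspa2, -0.05 to 0.1 for Hspa1l, -0.03 to 0.27 for Hsph1, -0.18 to 0.13 for Dnajb8, -0.07 to 0.13 for Clgn and -0.11 to 0.06 for Pdilt. Nsun7 lost its call on log2 TPM (-0.46, and -0.50 with pseudocount 0.1) and without any WT mouse or Nsun7-/- mouse 2, within a range of -1.03 to -0.76 (highest adjusted p = 0.093). Causes were not tested. For list genes leaving out 1 mouse gave 0.11 to 0.52 for Hsfy2, 0.08 to 0.27 for Bag5, -0.45 to -0.16 for Hspb9, -0.61 to -0.27 for Tpst2 and -0.32 to -0.12 for Hspa1b. Hsph1 had 502 to 975 counts in Nsun7-/- and 523 to 632 in WT.

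The count of called genes was 119, and 180 without a filter, 213 with DESeq2, 52 and 48 on log2(TPM + 1) and log2(TPM + 0.1), 12 on log2(TPM + 1) without a filter, and 67 to 166 leaving out 1 mouse. Called transcripts numbered 16, and 376 with DESeq2, 6 with voom, 10 on log2(TPM + 1) without a filter, 2 without WT mouse 1 and Nsun7-/- mouse 3, and 0 to 6 leaving out 1 mouse. Chaperone genes, their transcripts and the 105 list genes had 0 calls in each of the 17 settings.

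With mouse number as a replicate block 331 genes and 0 transcripts passed, with 0 chaperone genes. The labels do not say that a number marks shared mice or days. Deviations of same-numbered mice correlated at 0.18, 0.00 and 0.20, and those of differently numbered mice at -0.24 to 0.06. Nsun7-/- mouse 2 correlated best with WT mouse 3 (0.03), against 0.00 with WT mouse 2. Whether the numbers mark a pairing was not tested.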
